A study of Gallus gallus with 31 samples.

Results

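Syndecan-1 (SDC1), glypican-3 (GPC3), podocalyxin (PODXL) and CD24 are glycoproteins of the cell surface, and their mRNA was followed in the anterior pituitary gland of chickens. The 4 genes were chosen because they differed by genetic line or age in these same arrays, so their line and age values are given as a description, with no test. They were represented by 8 of the 19200 printed spots: 1 for SDC1, 2 for GPC3, 4 for PODXL and 1 for CD24. The annotation of the array gave the symbols of 7 of these spots. It paired no spot with CD24, and that spot took its name from the study's own gene list. All 8 spots passed the filter for testing, as did 17193 spots in all.

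Male birds were sampled 1, 3, 5 and 7 weeks after hatching. They came from a pair of broiler lines bred in opposite directions for body weight, called high growth (HG) and low growth (LG). By the study's methods the lines were reared apart through week 3 and mixed afterwards, and feed changed from starter to grower at week 3. Line therefore cannot be told apart from early rearing group at any of the 4 ages. At weeks 1 and 3 the lines were also still housed apart. Differences between week 7 and week 1 also span the change of feed. The arrays analysed here came from 3 HG birds at week 1, 4 HG birds at each of weeks 3, 5 and 7, and 4 LG birds at each of the 4 ages, with 1 array per bird. HG week 1 replicate 3 was not analysed here, and HG week 1 replicate 1 was kept as week 1 although lines inside its file name week 3. Amplified RNA of each bird was labelled with Cy3 and a pool of RNA from birds of both lines and all ages with Cy5, with no dye swap. Each value is therefore the log2 ratio of the bird to that pool, which compares birds for 1 spot but does not set the level of 1 gene against another. The lines are selected populations and the samples are whole glands, so that fewer cells of a type and less RNA per cell cannot be told apart.

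Syndecans are membrane-spanning proteins and glypicans are lipid-anchored proteins, and both carry heparan sulfate chains that bind growth factors, morphogens and matrix proteins. Podocalyxin is a sialomucin, a protein covered with sialic acid-rich O-linked sugars, known from the apical surface of podocytes and from blood vessel endothelium. CD24 is a small, heavily glycosylated, lipid-anchored protein used in mammals as a marker of immature cells of several tissues.

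Of 19200 spots, 14786 to 18342 per array were not flagged. Spots for the hormones of the gland were measured on these arrays, with a median Cy3 signal 73.1 times its background for prolactin (PRL), 22.9 times for the thyrotropin beta subunit (TSHB) and 83.5 times for the common alpha subunit (CGA). Other hormone spots were dim: FSHB, the follitropin beta subunit, lay at 2.85 times, the 2 spots of POMC, the corticotropin precursor, at 2.35 and 4.27 times, and the 2 of growth hormone (GH) at 1.91 and 55.1 times. Of the 8 spots described here, signal was lowest at GPC3 spot 17.2.13, with a median of 2.70 times background, followed by SDC1 at 4.11 times and GPC3 spot 28.6.10 at 4.89 times. CD24 lay at 10.6 times and the PODXL spots at 7.60, 17.2, 19.7 and 43.3 times.

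SDC1, the heparan sulfate carrier of epithelial cells and plasma cells, was higher in HG than in LG birds at each of the 4 ages, and the difference was largest at week 7. At week 1 the log2 ratios were -0.19, -0.02 and 0.06 in HG birds, against -0.56, -0.79, 0.06 and -0.92 in LG birds. At week 3 they were -0.02, 0.10, 0.43 and -0.07 in HG birds, against -0.40, -1.02, -0.76 and -0.83 in LG birds. The lines overlapped at week 1 through a single LG bird and did not overlap at week 3.

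At week 5 SDC1 stood at 0.16, -0.31, 0.28 and 0.74 in HG birds, against -0.20, -0.65, -0.51 and -0.61 in LG birds. At week 7 it stood at 1.05, 0.35, 0.97 and 0.67 in HG birds, against -0.42, -0.73, -0.94 and -0.80 in LG birds. The lines overlapped at week 5 and were fully apart at week 7. Over all ages, 10 of the 15 HG birds lay above every LG bird, and 14 of the 16 LG birds lay below every HG bird.

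In order of age, the SDC1 difference, HG minus LG, was 0.50 ± 0.23, 0.86 ± 0.21, 0.71 ± 0.21 and, at week 7, 1.48 ± 0.21 (SE, log2 scale), the last being 2.79-fold. Its mean over the 4 ages was 0.89 ± 0.11, or 1.85-fold. Week 7 minus week 1 was 0.81 ± 0.23 in HG birds and -0.17 ± 0.21 in LG birds, the second being 0.04 without LG week 1 replicate 3. On leaving out replicate 4 of that group it was -0.29. In the order of the 8 group means all HG groups came before all LG groups, led by HG week 7 at 0.76. Of its 7 neighbouring pairs of groups, 6 had overlapping birds and only HG week 1 and LG week 5 did not.

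**Figure D1:**
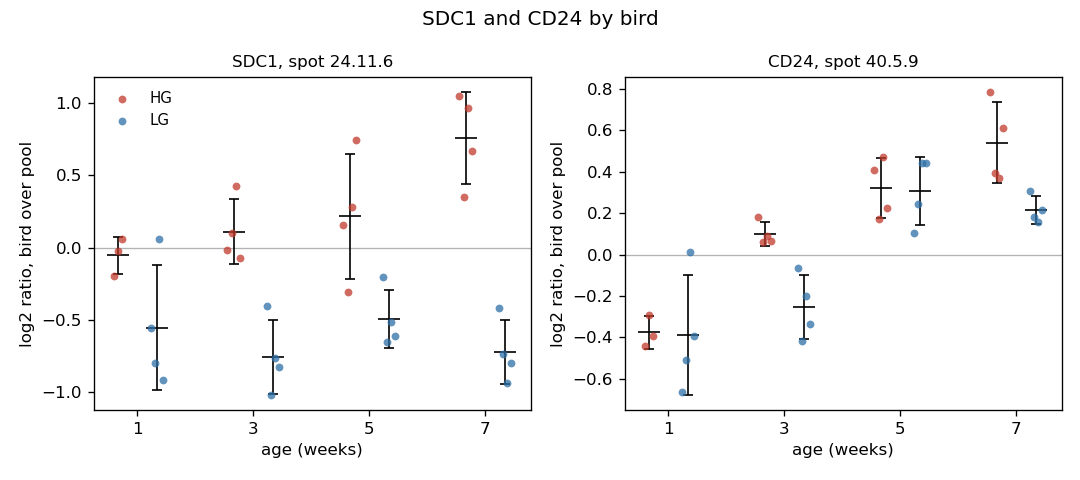
Log2 ratio of bird over pool for SDC1 and CD24 at weeks 1, 3, 5 and 7, with 1 point per bird, HG (red) left of LG (blue), and black marks for the group mean ± SD. SDC1 at week 7 lay between 0.35 and 1.05 in HG birds and between -0.94 and -0.42 in LG birds, while CD24 was higher at week 7 than at week 1 in both lines.

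Whether the course of a gene over age differed between the lines was tested at all 8 spots. The genes were chosen for line or age and not by name for this interaction, but results of these same arrays were known, and the spot of CD24 came from a gene list made on them, so the choice cannot be called independent of this test. None of the 8 passed the line-by-age interaction after adjustment over all spots, where 2 of 17193 did (0.0116%, limma F test), and 1 of the 8, SDC1 (adjusted p = 1.00), was under 0.05 before adjustment, as were 472 of all spots (2.75%). The change after week 1, which sets the mean line difference at weeks 3, 5 and 7 against that at week 1, passed at none of the 8 spots and at 1 of 17193 (0.00582%). None of the 8 was under 0.05 before adjustment, where 3.84% of all spots were. It was 0.52 ± 0.26 for SDC1 (SE, adjusted p = 1.00, limma), with a 95% interval of -0.01 to 1.04. The intervals of the other 7 spots also held 0. That of CD24 ran between -0.10 and 0.54, and the widest, that of PODXL spot 3.2.9, between -0.70 and 0.61.

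GPC3, a glypican that in mammals restrains growth by binding hedgehog and other ligands, had a higher mean at week 7 than at week 1 in both lines at both of its spots. The spots hold the same cDNA clone but gave mean line differences of opposite direction. At spot 17.2.13 the week 1 values were -0.58, -1.09 and -0.21 in HG birds, against -0.45, -0.37 and 0.06 in LG birds. The week 7 values were -0.11, 0.12, -0.51 and 0.22 in HG birds, against 0.63, 0.24, 0.02 and 0.45 in LG birds. HG and LG birds overlapped at both ages.

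Between these ages spot 17.2.13 gave -0.76, -0.20 and -0.58 in HG birds and -0.14, 0.17, -0.16 and -0.48 in LG birds at week 3. At week 5 it gave -0.62, -0.54, -0.39 and -0.31 in HG birds, against 0.42, 0.05, 0.24 and 0.28 in LG birds. Week 5 was the age at which all HG birds lay below all LG birds. The mean line difference of this spot was -0.46 ± 0.10 (SE), with all 4 ages below 0, and 7 of its 14 HG values lay below every LG value.

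At GPC3 spot 28.6.10 the week 1 values were -0.11 and -0.37 in HG birds, against -0.04, -0.87, -0.71 and -0.29 in LG birds. The week 7 values were 0.35, 0.41, 0.77 and 0.47 in HG birds, against -0.16, 0.17, 0.18 and 0.47 in LG birds. At week 3 it gave -0.44, 0.21 and -0.25 in HG birds, against 0.01, -0.54, -0.42 and -0.53 in LG birds. No age of this spot separated the lines. The week 5 values were 0.15, 0.13, -0.28 and 0.20 in HG birds, against 0.37, -0.16 and 0.02 in LG birds. Its mean line difference was 0.19 ± 0.11, with 3 of 4 ages above 0. At week 3 the difference was 0.21, and 0.02 without HG week 3 replicate 3, whose Cy3 signal was 1.77 times background.

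The age change had the same direction at both GPC3 spots. Birds of weeks 1 and 7 overlapped in both lines at spot 17.2.13 and in LG at spot 28.6.10. In HG at spot 28.6.10 they did not overlap, with 2 birds measured at week 1. Week 7 minus week 1 was 0.56 ± 0.21 in HG and 0.59 ± 0.21 in LG birds at spot 17.2.13, and 0.74 ± 0.24 in HG and 0.64 ± 0.19 in LG birds at spot 28.6.10. Without HG week 1 replicate 2 the HG value of spot 17.2.13 was 0.32. On the 27 arrays with both spots, spot 17.2.13 minus spot 28.6.10 had a median of -0.41 in HG birds and 0.26 in LG birds, and was below 0 in 12 of 13 HG birds and 4 of 14 LG birds. The correlation of the spots over these arrays was 0.27, and 0.02 after the group means were removed. Among the 379 clones with 2 tested spots, the median correlation was 0.05 and the median gap between the line differences of the spots was 0.13. The gap of GPC3 was 0.65, and 7 clones (1.85%), GPC3 included, had one as large. The direction of the GPC3 line difference therefore depended on the spot.

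PODXL was lower in HG than in LG birds on average at all 4 of its spots, which hold different clones, but by very different amounts. The largest difference was at spot 1.13.8. At week 1 this spot gave -0.50, -0.67 and -0.27 in HG birds, against -0.11, -0.10, -0.18 and -0.57 in LG birds. At week 3 it gave -0.48, -0.03, -0.40 and -0.42 in HG birds, against 0.24, 0.32, 0.58 and 0.45 in LG birds. The lines overlapped at week 1 and were apart at week 3.

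At week 5 PODXL spot 1.13.8 gave 0.05, 0.25, 0.15 and -0.40 in HG birds, against 0.11, 0.84, 0.20 and 0.92 in LG birds. At week 7 it gave -0.43, 0.43, -0.04 and 0.03 in HG birds, against -0.07, 0.65, 0.60 and 0.96 in LG birds. The lines overlapped at both of these ages. In order of age the line difference was -0.24 ± 0.23, -0.73 ± 0.21, -0.50 ± 0.21 and -0.54 ± 0.21 (SE), with a mean of -0.50 ± 0.11, which is 1.42-fold higher in LG.

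At the other PODXL spots the mean line difference was -0.23 ± 0.09 (30.7.10), -0.10 ± 0.13 (3.2.9) and -0.05 ± 0.08 (12.17.1, measured on 26 arrays). The HG mean was above the LG mean at week 5 at spot 3.2.9 (by 0.17) and at weeks 5 and 7 at spot 12.17.1 (by 0.04 and 0.01). Leaving out 1 bird moved the value of 3.2.9 between -0.17 (HG week 5 replicate 2) and -0.051 (HG week 5 replicate 1), and that of 12.17.1 between -0.094 (LG week 1 replicate 2) and -0.011 (LG week 1 replicate 1). Single birds of these 3 spots lay between -0.49 and 1.16 in HG and between -0.59 and 0.71 in LG. The highest was HG week 5 replicate 2 at spot 3.2.9, and the same bird was the highest HG bird of spot 12.17.1, at 0.46. At spot 30.7.10, however, that bird was the lowest HG bird, at -0.38. Lines did not overlap at 1 age at spot 12.17.1, week 3, and overlapped at every age at spots 30.7.10 and 3.2.9.

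All 4 PODXL spots had a higher mean at week 7 than at week 1 in both lines. Week 7 minus week 1 was 0.48 ± 0.23 in HG and 0.77 ± 0.21 in LG birds at spot 1.13.8, 0.32 ± 0.18 and 0.35 ± 0.17 in HG and LG birds at spot 30.7.10, 0.20 ± 0.28 and 0.45 ± 0.26 at spot 3.2.9, and 0.26 ± 0.19 and 0.21 ± 0.17 at spot 12.17.1. Single birds weighed on 2 of these values. In HG at spot 3.2.9 the change was 0.061 without HG week 1 replicate 2 and 0.41 without HG week 1 replicate 1, and in LG at spot 12.17.1 it was 0.039 without LG week 1 replicate 2, against 0.37 on leaving out replicate 1 of that group. The HG change at spot 12.17.1 set 3 birds at week 7 against 2 at week 1. Over the arrays, the spots correlated with each other between 0.09 (12.17.1 with 30.7.10) and 0.78 (12.17.1 with 3.2.9), and after removal of group means between -0.28 and 0.75 for the same pairs.

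**Figure D2:**
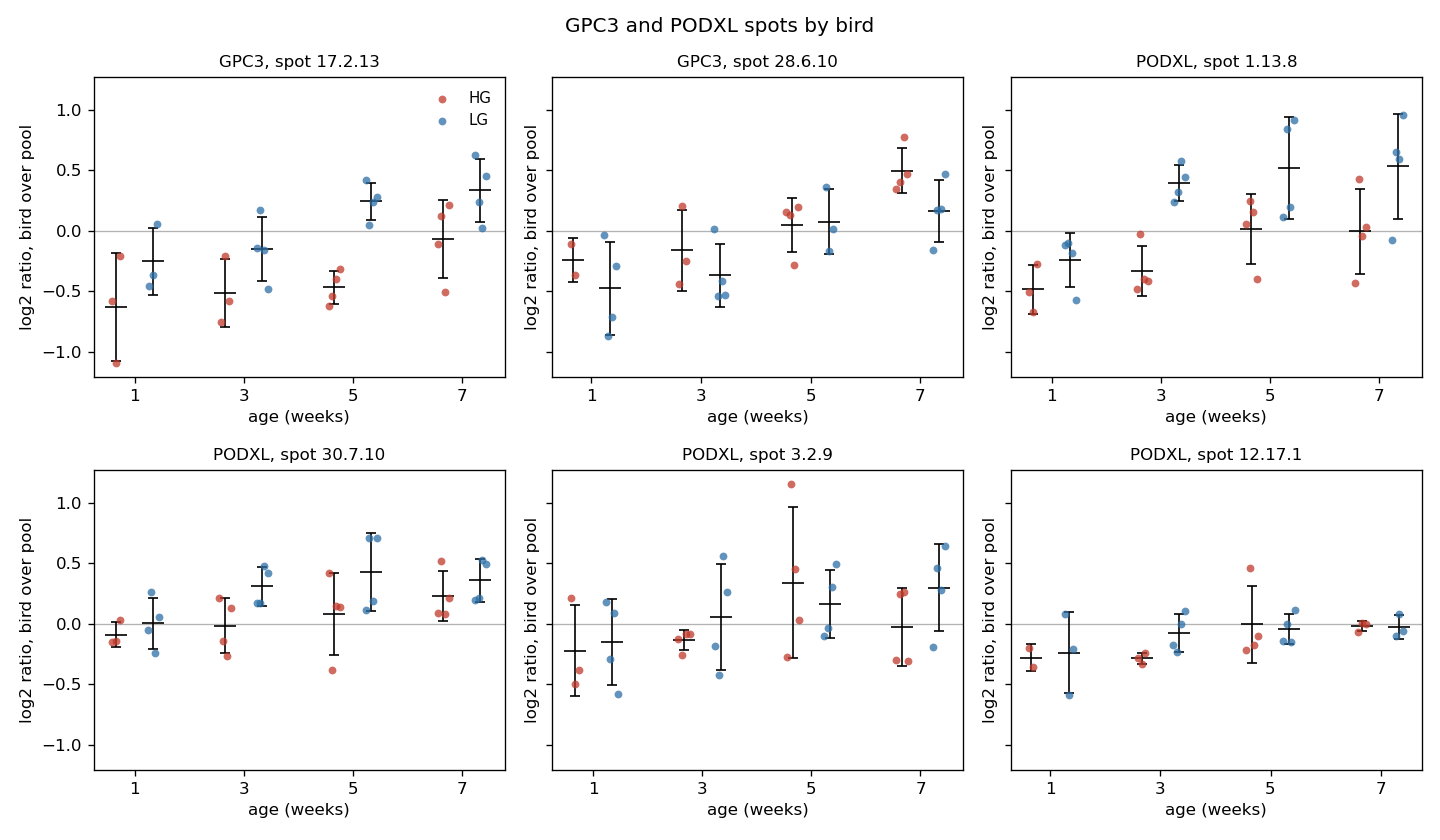
Log2 ratio of bird over pool at the 2 GPC3 and 4 PODXL spots, with 1 point per bird, HG (red) left of LG (blue), and black marks for group mean ± SD. HG birds lay below all LG birds at week 5 at GPC3 spot 17.2.13 and at week 3 at PODXL spots 1.13.8 and 12.17.1, and the lines overlapped in every other panel and week.

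CD24 was higher at week 7 than at week 1 in both lines, with the LG mean at week 5 (0.31) above that at week 7 (0.22). At week 1 it gave -0.44, -0.29 and -0.39 in HG birds, against -0.67, -0.51, 0.01 and -0.39 in LG birds. At week 3 it gave 0.18, 0.06, 0.09 and 0.06 in HG birds, against -0.06, -0.42, -0.20 and -0.33 in LG birds. Overlap at week 1 gave way at week 3, when every HG bird was above every LG bird.

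At week 5 CD24 stood at 0.41, 0.17, 0.47 and 0.22 in HG birds, against 0.10, 0.24, 0.44 and 0.44 in LG birds. At week 7 it stood at 0.78, 0.39, 0.37 and 0.61 in HG birds, against 0.31, 0.18, 0.16 and 0.21 in LG birds. The lines overlapped at week 5 and were apart at week 7. Week 7 minus week 1 was 0.91 ± 0.14 in HG birds (1.88-fold) and 0.60 ± 0.13 in LG birds (1.52-fold), and the mean line difference was 0.18 ± 0.06 (SE).

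Read as counts over the 8 spots, HG birds lay above all LG birds at 2 or more ages at 2 spots, SDC1 and CD24, where 1.46% of all tested spots did so, and below all LG birds at 1 or more ages at 3 spots, where 11.6% did. HG week 7 birds lay above all HG week 1 birds at 5 spots (7.53% of all spots), and LG week 7 birds above all LG week 1 birds at 2 spots (3.97%). CD24 was the spot at which this held in both lines (0.832%). The genes were chosen on these contrasts, so nothing is read from the counts.

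**Figure D3:**
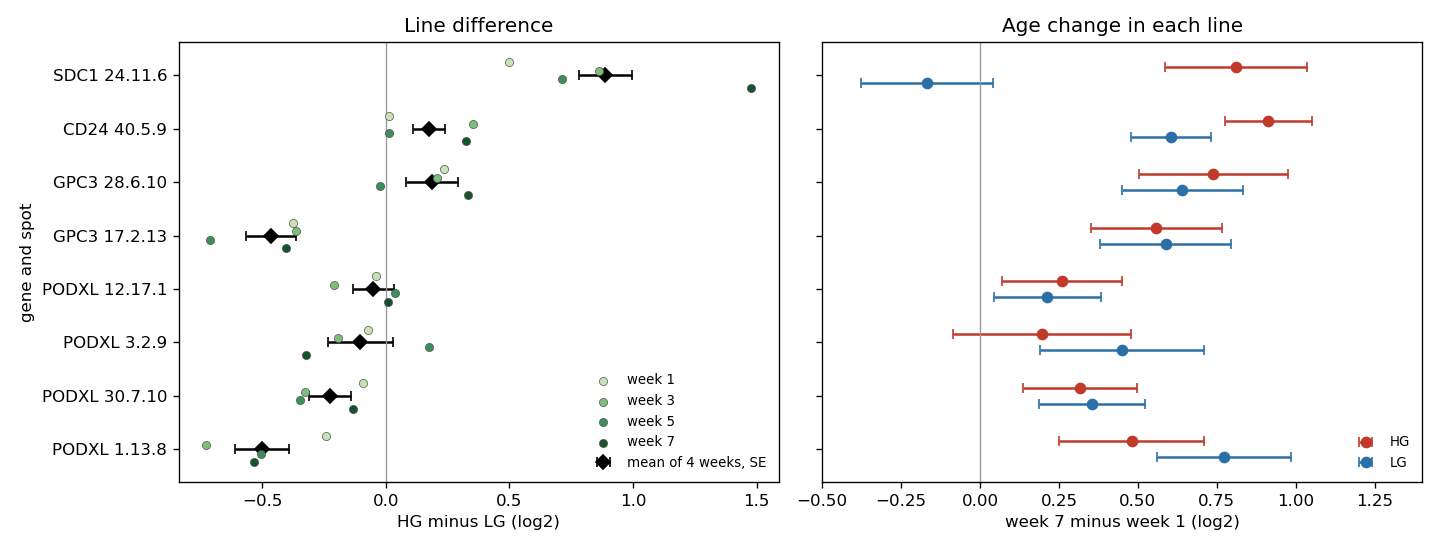
Left, HG minus LG at each of the 8 spots, with the mean over the 4 ages (diamond, ± SE) and the value at each week; right, week 7 minus week 1 in HG (red) and in LG (blue), ± SE. Line differences ran from -0.50 at PODXL spot 1.13.8 to 0.89 at SDC1, and week 7 minus week 1 was above 0 at all 8 spots in HG and at 7 in LG, with SDC1 at -0.17 in LG. The genes were chosen for a difference by line or age, so nothing is read from these counts.

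Between spots of different genes, correlation with group means removed was highest for SDC1 with CD24 and lowest for SDC1 with PODXL spot 1.13.8. Over 31 arrays the correlation was 0.53 for SDC1 with CD24 and 0.43 with group means removed. For SDC1 with PODXL spot 1.13.8 it was -0.49 and, with group means removed, -0.46. The other PODXL spots were less far from 0 with SDC1 over the arrays, at -0.34 (30.7.10), -0.17 (3.2.9) and -0.10 (12.17.1, 26 arrays). GPC3 spot 28.6.10 and CD24 gave 0.62 over 28 arrays but -0.31 with group means removed. These are descriptions over arrays that share 1 reference pool, and with group means removed the other pairs of different genes lay between -0.34 and 0.42. Removing group means does not remove the shared deviation of same-numbered birds that is described at the end. Its part in these correlations was not tested.

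Genes of most like pattern were sought among named spots measured on the same arrays, 4836 to 5151 for each spot, so the values below are extremes of many. Group means were left in, so differences by line and age enter these correlations. For SDC1 they were HPGDS, a prostaglandin D synthase (r = 0.79), HSD17B12, an enzyme of fatty acid elongation (0.79), and MAN2B2, a mannosidase (0.75), and the least like was PRKAB1, a subunit of AMP-activated kinase (-0.75, 31 arrays). For CD24 they were PRXL2A (0.79), SOD2, the mitochondrial superoxide dismutase (0.78), and GNPDA1 (0.75), and the least like was TOP2A, a topoisomerase of dividing cells (-0.77, 31 arrays). GPC3 spot 17.2.13 was most like ANKRD27 (0.86), KLHL14 (0.82) and PRKCD (0.81) and least like NR2C1 (-0.65, 29 arrays). Spot 28.6.10 was most like TSHB (0.69), WDR20 (0.66) and CHMP6 (0.65) and least like PBK, a mitotic kinase (-0.72, 28 arrays). The 2 GPC3 spots had no gene in common among these.

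The PODXL spots differed likewise. Spot 1.13.8 was most like B2M, the light chain of MHC class I (0.76), JUN (0.71) and POF1B (0.71), and least like ARL3 (-0.64). Spot 30.7.10 was most like TMEM248 (0.76), JUN (0.74) and CD59, a complement inhibitor (0.74), and least like TMEM116 (-0.64), all over 31 arrays. Spot 3.2.9 was most like TRRAP (0.84), LOC417447 (0.84) and TIMP2 (0.80) and least like PPME1 (-0.85, 31 arrays). Spot 12.17.1 was most like MRPL13 (0.77), NKIRAS2 (0.76) and USP25 (0.74) and least like APCDD1L (-0.72, 26 arrays). JUN was the single gene that 2 PODXL spots shared.

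In 9 lists of genes of the same pathways, 127 genes were tested at 214 spots. None of these spots passed the line test after adjustment (limma), 19 were under 0.05 before adjustment (8.88%), and over all spots 58 passed (0.337%) and 1246 were under 0.05 (7.25%). The age test was an F test over the 4 ages. It passed at 2 of the 214 spots and 19 (8.88%) were under 0.05 before adjustment, against 99 (0.576%) and 1480 (8.61%) of all spots. None passed the interaction or the change after week 1, with 5 and 9 spots under 0.05 before adjustment, where 2.75% and 3.84% of all spots were. The median line difference of the 214 spots was 0.00, as it was over all tested spots.

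Among heparan sulfate proteoglycan cores, 13 spots of 7 genes were tested, with line differences between -0.08 and 0.19. SDC2, another syndecan, had the smallest p of these, with a line difference of 0.19 ± 0.08 (SE, adjusted p = 0.489, limma). Its mean was 0.57 in HG and 0.12 in LG birds at week 7, and -0.17 in HG and 0.13 in LG birds at week 1. The next were the glypican GPC4 (0.09 ± 0.06) and the co-receptor NRP2 (-0.07 ± 0.05). None of the 13 passed a test.

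Among chondroitin and keratan sulfate proteoglycan cores, 1 of 23 spots passed, for age. This was CD74, the invariant chain of MHC class II (adjusted p = 0.0234, limma F test over the 4 ages). Its week 7 level exceeded that of week 1 by 1.09 ± 0.24. The week 1 means were -1.08 in HG and -1.06 in LG birds, and the week 7 means -0.17 in HG and 0.22 in LG birds. In HG birds the highest mean was that of week 5, at 0.32. Decorin (DCN) had a line difference of 0.33 ± 0.08 (adjusted p = 0.0815) and osteoglycin (OGN), both small leucine-rich matrix proteoglycans, of -0.46 ± 0.13 (adjusted p = 0.148). The call of CD74 was lost when any of 4 week 1 birds was left out, with an adjusted p of up to 0.108 without HG week 1 replicate 2. DCN passed in some alternatives, with an adjusted p of 0.0241 without background correction.

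The list of sialomucins and mucin-type surface proteins also held other glycoproteins, such as LAMP1 and CD59. Of its 30 tested spots of 15 genes, 1 passed, also for age. CD164, a sialomucin of the cell surface and lysosomes, was higher at week 7 than at week 1 by 0.48 ± 0.10 at spot 32.7.13 (adjusted p = 0.0308, limma), with 0.43 in HG and 0.53 in LG birds. That call was lost when any of 5 birds was left out, with an adjusted p of up to 0.104 without HG week 1 replicate 1. The other named CD164 spot, 32.4.18, gave 0.16 ± 0.07 for week 7 minus week 1 and did not pass for age (adjusted p = 0.589, limma F test). LAMP1, a lysosomal membrane glycoprotein, had a line difference of -0.12 ± 0.05 (adjusted p = 0.485).

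The other lists held no spot that passed a test. In heparan sulfate synthesis and editing, SLC35B3, which carries the sulfate donor into the Golgi, differed by -0.23 ± 0.09, UGP2, which makes UDP-glucose, by 0.22 ± 0.10, and GUSB, the lysosomal beta-glucuronidase, by 0.13 ± 0.05. In sialic acid and O-glycan synthesis, GNE, the first enzyme of sialic acid synthesis, differed by -0.17 ± 0.08, and 2 spots of the sialyltransferase ST6GAL1 by 0.16 ± 0.07 and 0.13 ± 0.07. Among cytoplasmic partners, ezrin (EZR), which ties podocalyxin to actin, differed by -0.29 ± 0.09 and -0.15 ± 0.08 at 2 spots, and syntenin (SDCBP), which binds syndecan tails, by 0.15 ± 0.11. SDCBP stood at 0.083 without HG week 1 replicate 1 and at 0.081 without LG week 3 replicate 2, and UGP2 at 0.088 with the deposited table.

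Of GPI anchor synthesis, the attachment used by glypicans and CD24, PIGG differed by -0.26 ± 0.10, DPM1 by 0.42 ± 0.22 and PIGT by 0.28 ± 0.15. A single HG week 1 bird stood at 3.83 for DPM1, whose difference was 0.12 without HG week 1 replicate 1 and 0.071 with the authors' deposited table, and that of PIGT was 0.17 without HG week 7 replicate 1. Of the sheddases and their inhibitors, MMP2 differed by 0.13 ± 0.06, TIMP4 by 0.42 ± 0.20 and RHBDF1 by -0.17 ± 0.10. Of the heparin-binding ligands and their receptors, pleiotrophin (PTN) differed by 0.35 ± 0.14, LRP1 by -0.41 ± 0.17 and the chemokine CXCL12 by -0.22 ± 0.10. The adjusted p of these named spots lay between 0.238 (EZR) and 0.896 (SDCBP) in the line test.

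**Figure D4:**
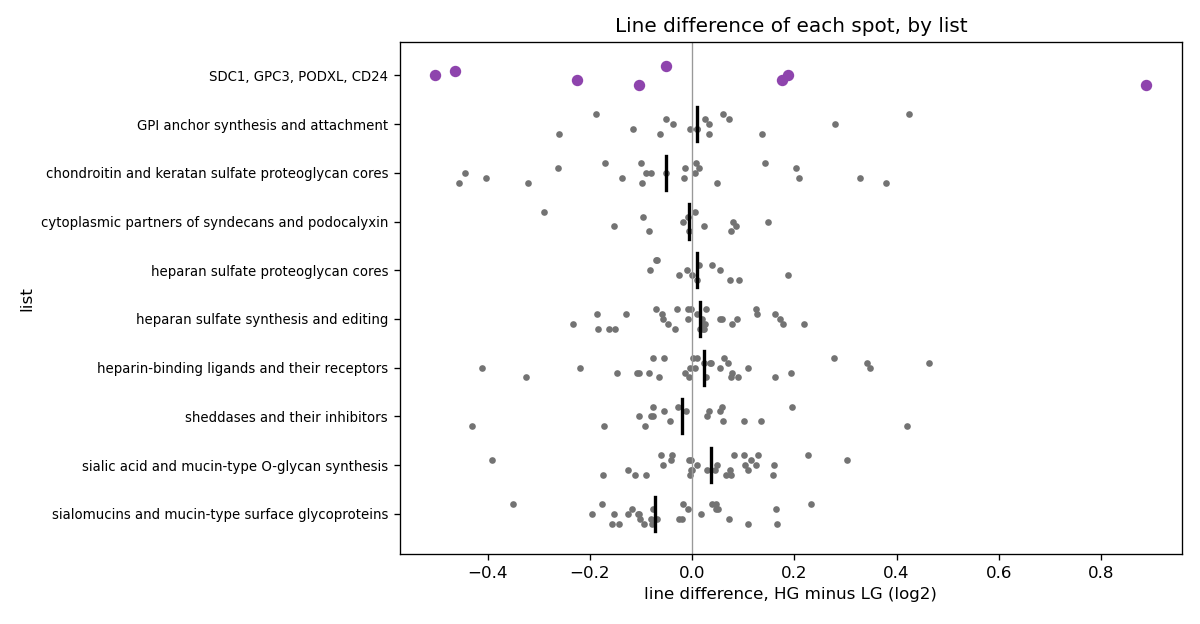
Line difference, HG minus LG on the log2 scale, at the 8 spots of SDC1, GPC3, PODXL and CD24 (top row) and at every tested spot of the 9 pathway lists (grey points, with black bars for the list median). The 8 spots lay between -0.50 (PODXL spot 1.13.8) and 0.89 (SDC1), and the list spots between -0.46 (OGN) and 0.46. The 4 genes, unlike the lists, were chosen for a difference by line or age, so the 2 ranges are not compared.

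Markers of cell types that could hold these genes are given beside them. Of 25 tested endothelium spots, a cell type that carries podocalyxin in mammals, none passed for line or age, and their median per bird lay between -0.08 and 0.15 in HG and between -0.14 and 0.08 in LG birds. Of 10 fibroblast and pericyte spots 1 passed for line, RGS5, a pericyte gene (0.30 ± 0.07, adjusted p = 0.0398, limma), a call that was lost on omitting 1 array for 17 of the 31 arrays, and the median per bird lay between -0.07 and 0.30 in HG and between -0.30 and 0.05 in LG birds. Of 13 hormone cell spots 2 passed for line, TSHB (0.86 ± 0.14, adjusted p = 0.00148) and FSHB (1.15 ± 0.22, adjusted p = 0.0114), both higher in HG, and the median per bird lay between -0.49 and 0.05 in HG and between -1.08 and 0.07 in LG birds. FSHB was a dim spot, at 2.85 times background. Over all tested spots, 0.337% passed for line. For SDC1 and CD24, 6 epithelial and stem or folliculostellate spots held no call, and their median per bird lay between -0.26 and 0.24 in HG and between -0.26 and 0.77 in LG birds. The 3 B and plasma cell spots held none either, although 1 passed for age on omitting 1 array for 5 of the 31 arrays. At week 7 their median per bird lay between -0.32 and -0.08 in HG and between 0.04 and 0.36 in LG birds, with no overlap. At weeks 1, 3 and 5 the lines overlapped, and these 3 spots stood for 2 genes. JCHAIN, the joining chain of secreted antibodies, was named after its values were seen and did not pass for age (adjusted p = 0.0515, limma). Its week 7 minus week 1 was 0.28 in HG and 2.51 in LG birds. Over the 3 B and plasma cell spots the median of that change was 0.18 in HG and 0.12 in LG birds. The erythrocyte, T cell, macrophage and granulocyte, and glia and neuron lists held no call. Line separation of the medians per bird was not particular to B and plasma cell spots. Fibroblast and pericyte medians were also apart at week 1 (HG -0.04 to 0.20, LG -0.22 to -0.09). So were those of the 2 erythrocyte spots at week 5 (HG -0.42 to 0.02, LG -0.88 to -0.51).

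The age change of CD24, GPC3 and PODXL ran beside a lower level of cell division genes. Of 19 proliferation spots 6 passed for age, all lower at week 7 than at week 1, and the list's median per bird lay between 0.06 and 0.10 in HG and between -0.03 and 0.21 in LG birds at week 1, and between -0.32 and -0.19 in HG and between -0.30 and -0.25 in LG birds at week 7. Of the 13 hormone cell spots 1 passed for age, that of the granule protein CHGB, higher at week 7 (1.76 ± 0.29, adjusted p = 0.00949, limma). Over those 13 spots the median week 7 minus week 1 was -0.04. Of all spots, 0.576% passed for age. The part of these cell types in the values of SDC1, GPC3, PODXL and CD24 was not tested.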

How the data were processed

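The authors read the arrays with Spotfinder 2.2.4 and deposited, per the file headers, intensity values of both channels that still hold the local background, together with flags. They also deposited log2 ratios of Cy3 over Cy5 that they had normalized by lowess in MIDAS 2.18, and these were used as an alternative. No probe sequence or genome coordinate was used here.

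Intensities were background-corrected here by normexp (offset 50) fitted on all spots, flagged and undetected spots were set missing, and log2 ratios were normalized by loess within each array. The order of these steps was settled after several orders had been run on the data, and 5 other orders are given among the alternatives. Spots on at least 16 of 31 arrays and at least 1 array per group were fitted on 8 group means with limma 3.58.1 in R 4.3.3. The p-values were adjusted over 17193 spots by the Benjamini-Hochberg method with a threshold of 0.05, and SE are limma's. The script was tested on simulated data.

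SDC1, GPC3, PODXL, CD24 and all lists of genes were chosen with earlier results of these data known. Named were every spot of these genes, list spots passing a test or up to 3 of smallest line p, and for each spot the 3 of highest and the 1 of lowest correlation over arrays. Symbols came from the array annotation, an old one, and no symbol changed when looked up through RefSeq (GRCg7b), which held 10455 of 10601. The labels only number the replicates, and the study's methods describe them as separate birds. Alternatives were leaving out each array, clone means, a replicate block, other models and filters, no background correction, the deposited table, and normalization by median centring, by print-tip loess or with scaling between arrays.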

Additional observations from a re-analysis of the deposited data

Results flagged for a closer look

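Of 48 groups of 4 birds at the 8 spots, 2 held a bird that lay apart from the others by Dixon's 95% criterion, and chance alone gives about 1 in 20. At PODXL spot 12.17.1, HG week 5 replicate 2 stood at 0.46 with the nearest bird of its group at -0.10. At GPC3 spot 28.6.10, HG week 5 replicate 3 stood at -0.28 with the nearest bird at 0.13.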

How the results depend on the processing

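Across 20 alternatives other than leaving out an array, the line difference of SDC1 ran between 0.67 (deposited table) and 0.99 (array weights), that of PODXL spot 1.13.8 between -0.54 and -0.44, and that of CD24 between 0.16 and 0.20. For SDC1 the deposited table also gave a smaller week 7 line difference, 1.04 in place of 1.48. Its week 7 minus week 1 in HG birds was 0.59 with that table, in place of 0.81. With clone means, the GPC3 clone gave -0.19, so the direction of spot 28.6.10 was lost, and its change after week 1 was 0.064. The small changes after week 1 turned direction, none passing the test: 0.015 (PODXL 3.2.9), 0.093 (GPC3 17.2.13) and 0.10 (GPC3 28.6.10) with median centring; 0.059 (PODXL 12.17.1) and 0.000799 (GPC3 28.6.10) with the deposited table; 0.12 (GPC3 28.6.10) with flagged spots kept; and 0.060 (PODXL 3.2.9) with array weights. Leaving out 1 array in turn, they ran between -0.35 and 0.092 (GPC3 17.2.13), -0.21 and 0.067 (GPC3 28.6.10), -0.17 and 0.16 (PODXL 12.17.1) and -0.18 and 0.17 (PODXL 3.2.9). By unadjusted p of the two-way model the interaction of SDC1 stood at 0.0245 and was the 1 spot of the 8 called, and the pathway lists held 21 calls for line, 19 for age, 5 for interaction and 13 for change after week 1. List calls for line, 0 as reported, were 1 with scaling, no background correction, spots on all arrays or array weights and 2 with the deposited table, and 0 to 1 leaving out an array (1 without HG week 1 replicate 4 or HG week 3 replicate 3). List calls for age, 2 as reported, were 1 with median centring, scaling, flagged spots kept, spots on all arrays or the two-way model, and 0 to 2 leaving out an array (0 without HG week 1 replicate 2 or LG week 1 replicate 1). The cause was not tested.

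Same-numbered birds of the lines deviated together in 12 of 15 pairs (r over 0.1), and 27 of 31 arrays correlated best with their own number, a hint from the data and not from the labels. With the replicate block the line difference of SDC1 was 0.90, the changes after week 1 were 0.016 (PODXL 12.17.1) and 6.06e-05 (GPC3 28.6.10), and 98 spots passed for line in place of 58. Over all spots, 188 passed for line with the deposited table, 109 without background correction, 24 with a difference of at least 0.68, 1252 by unadjusted p, and 34 to 146 leaving out an array (34 without HG week 1 replicate 1, 146 without HG week 1 replicate 4). For age, 99 as reported, 41 passed with median centring, 164 with the deposited table, 56 with flagged spots kept, 1485 by unadjusted p, and 56 to 124 leaving out an array (56 without HG week 7 replicate 4). For the interaction, 2 as reported, 0 to 5 passed across adjusted alternatives, 0 to 7 leaving out an array, and 422 by unadjusted p. For the change after week 1, 1 as reported, these were 0 to 3, 0 to 9 and 625. The orders of flagging, background correction and loess, chosen after seeing the data, moved the list calls for line and age by 0. Signal only a few times over background limits GPC3 and SDC1. Single ages are limited by 3 or 4 birds per group, and by 2 in HG week 1 at GPC3 spot 28.6.10 and PODXL spot 12.17.1. SDC1 and CD24 each rested on 1 spot, with no second spot to set beside it.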
